A study of Mus musculus with 2 samples.

Results

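The Igll1-negative Ms4a1 B cells of the neonatal mouse knee were 633 of 15174 kept cells (4.17%, 95% exact binomial interval 3.86 to 4.50). They were chosen by their counts of a few genes. A barcode had to carry at least 1 UMI (unique molecular identifier, 1 counted RNA molecule) of Cd79a and at least 1 UMI of Ms4a1 or Pax5. It also had to hold fewer than 2 UMIs of Igll1 and Vpreb1 together, no C1qa, and S100a8 below 1% of its UMIs. Cells were kept with 500 genes or more, 1000 UMIs or more and mitochondrial UMIs of no more than 10%. These measured values picked the members, so every level below describes them and none is a test.

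The cells came from hindlimb knee joints of wild-type mice and of Col12a1 knockout mice, which lack collagen XII, at postnatal day 7. Pups of both sexes were used in each genotype, and collagenase II (4 mg/mL) freed the cells over 6 h. Per the labels, 2 separate experiments were merged, the first with 1 library of each genotype and the second with 2 of each. The deposited matrix is 1 pooled table of 24203 barcodes in 2 sets, told apart by the barcode ending. No label ties a set to a genotype, so wild type and knockout were not compared, and no replicate error, p-value or test could be had. Set 1 gave 178 members (2.49% of 7160 kept cells, 2.14 to 2.87) and set 2 gave 455 (5.68% of 8014, 5.18 to 6.21). Every interval here is a 95% interval for counting error alone.

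B cells mature in the bone marrow, and before that in the fetal liver. Pro-B cells rearrange the heavy chain genes with Rag1 and Rag2, and large pre-B cells pair the heavy chain with the surrogate light chain made from Igll1 and Vpreb1. They divide under interleukin 7, lose the surrogate chain, stop dividing and rearrange the kappa and then the lambda light chain genes. Immature B cells put IgM on their surface, then gain IgD, Cd20 (Ms4a1) and MHC class II and leave for spleen and lymph nodes. Pax5 is on from the pro-B stage onward, well before Ms4a1.

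The label held only in part. Ms4a1 (GRCm38 chr19:11249675-11266241, minus strand) gave a UMI in 257 of the 633 members (40.6%, 36.7 to 44.5), with 41.0% in set 1 and 40.4% in set 2. The other 376 members (59.4%, 55.5 to 63.3) entered through Pax5 (chr4:44524757-44710487) alone. Both genes were seen in 211 members. The Pax5-only members had a median of 4206 UMIs and the Ms4a1 members 3632. Each route needs a UMI of its own gene, so these depths are set in part by the rule, and the part of depth in the missing Ms4a1 was not tested. The members are therefore described below as a whole and by these routes of entry.

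The general B cell markers were present. Cd79a and Cd79b, which carry the signal of the antigen receptor, stood at 931 and 535 UMIs per 1000000 UMIs of the class (CPM) in the members. Cd79a was 1360 CPM (1303 to 1419) in Ms4a1 members and 669 CPM (638 to 702) in Pax5-only members. It was at 0 UMIs in the neutrophils, macrophages and T cells used for comparison, whose definition excluded it. Ighm, the IgM heavy chain, reached 1904 CPM and Igkc, the kappa constant region, 1845 CPM, with 0.623 CPM of Igkc in neutrophils.

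RNA of other cells was present in some members and has to be read beside the values. At least 1% of UMIs came from Col1a1, Col1a2, Col3a1 and Col2a1 in 29 members, whose median was 26950 UMIs against 3826.5 in the rest. At least 1% came from the 4 adult globin genes in 71 members, with a highest share of 81.5%. Together 97 members met either limit and 536 met neither. Among 228 precursor B cells, 14 met either limit. Summed erythroid markers (8 of 8 genes detected) ran at 12485 and 21322 CPM in the Ms4a1 members of sets 1 and 2 and at 62291 and 52378 CPM in the Pax5-only members. Summed fibroblast and chondrocyte markers (10 of 10 detected) ran at 609 and 16410 CPM in Ms4a1 members and at 21953 and 10719 CPM in Pax5-only members, against 59121 CPM in connective tissue cells. Macrophage and monocyte markers (8 of 10 detected) reached 41.7 and 16.3 CPM in the members, against 6328 CPM in macrophages. In the precursors of sets 1 and 2 the erythroid sums were 8451 and 4599 CPM, against 45113 and 40050 CPM in all members. The fibroblast and chondrocyte sums were 3564 and 1243 CPM, against 14592 and 12978 CPM. Neutrophil markers (10 of 10 detected) reached 504 and 183 CPM in the members, against 243371 CPM in neutrophils. The connective tissue cells, macrophages and neutrophils were each defined by genes on their own list. The rule also limited S100a8 and C1qa in the members, so the gaps to these classes were set in part in advance. Of 12 T and NK cell markers 10 were at 0, including Cd3e, Trbc1, Cd4 and Cd8a. Of 10 plasmacytoid dendritic markers 2 were at 0, Siglech and Klk1. That list summed to 1156 and 1068 CPM in the members of sets 1 and 2, against 606 and 651 CPM in the precursors. Of 12 plasma cell genes 2 were at 0, Jchain and Tnfrsf17. Their list summed to 743 and 803 CPM in the members, against 579 and 693 CPM in the precursors. Ccr2 was also at 0 UMIs, and a gene at 0 UMIs may have up to 0.887 CPM. A doublet caller, Scrublet, marked only 2 of 7160 and 1 of 8014 kept cells and so had not worked; none was a member. Of the 40 barcode sequences found in both sets, 2 were carried by members. List counts below are therefore mostly given with all barcodes and again without those high in collagen or globin UMIs. Values printed once include all barcodes.

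**Figure D1:**
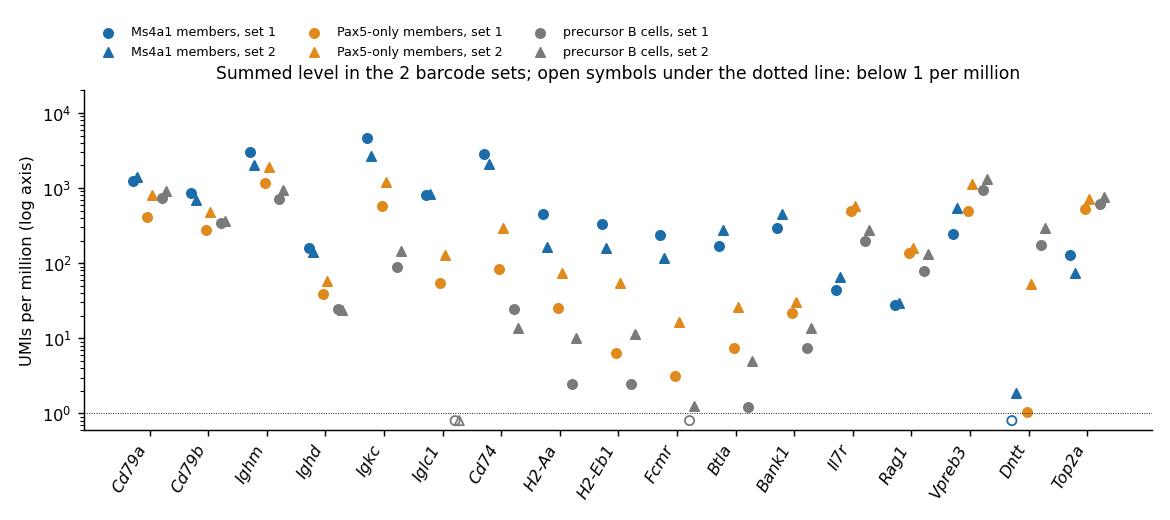
Summed level of 17 genes (CPM, log axis) in Ms4a1 members, Pax5-only members and precursor B cells, with a circle for set 1 and a triangle for set 2. Cd74 stood at 2837 and 2059 CPM in Ms4a1 members, 83.6 and 293 CPM in Pax5-only members and 24.4 and 13.8 CPM in precursors. Open symbols lie below 1 CPM.

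The first comparison set the members against the precursor B cells of the same joints. These were the 228 cells with Cd79a and at least 2 UMIs of Igll1 and Vpreb1 together. They had a median of 9949.5 UMIs, against 3975 in the members. The UMI limits on Igll1 and Vpreb1 set these depths in part, and the part of depth in the comparison was not tested. A gene counted as higher or lower when both sides together had at least 100 UMIs, the ratio of CPM was at least 2 or at most 0.5, its interval left out 1 and both sets had the same direction. Of 8158 genes with enough UMIs, 1505 (18.4%) were higher in the members and 696 (8.53%) lower, and the median log2 ratio was 0.22. Without the barcodes high in collagen or globin, the shares were 19% and 9.32% of 6976 genes. The split moved with the scaling. Ribosomal protein genes took 14.9% of the members' UMIs and 27.8% of the precursors'. TMM scaling shifted all log2 ratios by -0.21 and gave 1140 higher and 1095 lower genes, so that higher genes were 51.0% of the calls in place of 68.4%. Dividing by UMIs without immunoglobulin, mitochondrial and ribosomal protein genes gave 48.5%. The list directions given below were the same under these scalings, except where said.

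Immunoglobulin constant genes were the group farthest above the precursors. All 6 of the 6 that had enough UMIs were higher under the rule, with a median log2 ratio of 5.73, and 5 of 6 under both other scalings. Igkc was 15.7-fold higher (14.2 to 17.5; 21.8 in set 1 and 12.3 in set 2). The lambda constant genes were at or near 0 in the precursors. Iglc1 had 1576 UMIs in the members and 0 in the precursors, at least 408-fold higher against a floor of 3 counts over the group. Iglc2 was 182-fold higher with 3 precursor UMIs (62.1 to 886), and Iglc3 at least 179-fold higher. Ighd, the IgD heavy chain, was 3.59-fold higher, at 86.6 CPM against 24.1 CPM. Ighm was 2.31-fold higher, a gap that falls under 2-fold with TMM scaling. Switched isotypes were nearly missing. Ighg1, Ighg2c and Ighe had 0 UMIs among the members, Ighg3 had 1, Igha 2 and Ighg2b 3, all of the latter in 1 barcode.

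Genes of late B cell maturation were higher in 18 of 24 with enough UMIs, and none was lower (17 of 23 without the collagen-high or globin-high barcodes). TMM scaling left 16 higher and made 1 lower. Fcmr, the IgM Fc receptor, was at 65.9 CPM against 0.928 CPM, and Btla, an inhibitory receptor of lymphocytes, was 33.7-fold higher (18.1 to 70.7). Fcrl1, an Fc receptor-like co-receptor, was 21.1-fold higher and Bank1, a B cell scaffold protein, 16.2-fold. Ccr7, which guides cells into lymphoid tissue, was 3.79-fold higher and S1pr1, needed to leave the marrow, 2.29-fold (1.98-fold, not past the rule, with TMM scaling). Cd83 was 14.7-fold higher, with 28.6% of its UMIs in 1 barcode. Markers of the last stages stayed low: Cr2 (Cd21) reached 8.90 CPM and Fcer2a (Cd23) 4.33 CPM, the latter in 2.53% of members.

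MHC class II molecules present peptides to T cells. Of 9 genes of MHC class II and peptide loading 6 were higher and none lower. The 6 were Cd74, H2-Aa, H2-Eb1, Ctss, Cd86 and Ifi30. Without the collagen-high or globin-high barcodes 9 of 9 were higher. Cd74, the invariant chain, stood at 1008 CPM (977 to 1039) in the members and 19.2 CPM in the precursors, 52.6-fold higher (40.9 to 68.7). H2-Aa was 21.4-fold higher (71.0 in set 1, 11.0 in set 2) and H2-Eb1 15.2-fold (48.0 and 8.54). H2-Ab1 was at 142 CPM against 76.1 CPM and did not reach 2-fold.

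Signalling genes of the antigen receptor were higher in 15 of 29 and lower in none (17 and 1 without the barcodes high in other RNA; 13 and 1 with TMM scaling). Lyn, the kinase that first phosphorylates the receptor, was 5.41-fold higher (4.86 to 6.04) and Syk, the kinase that follows it, 3.86-fold. Malt1, which links the receptor to NF-kB, was 4.73-fold higher. Ptpn6 and Cd22, which dampen the signal, were 2.11-fold and 3.30-fold higher, and Ptpn6 was at 1.83-fold, not past the rule, with TMM scaling. Of 27 B lineage transcription factors 9 were higher and 2 lower (13 and 2 without the barcodes high in other RNA). Ikzf3 (Aiolos) was 6.62-fold higher, Klf2 5.93-fold, Spib 4.97-fold and Bach2 4.07-fold. Erg and Lef1, both factors of early B cells, were 6.93-fold and 4.20-fold lower.

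The early genes parted into those that were down and those that were not. Of 20 genes of the pre-B receptor and early B list 6 were lower and 1 higher, leaving out Igll1 and Vpreb1, which the rule used. Vpreb2, a near copy of Vpreb1 with which reads may be shared, was 167-fold lower. Dntt, which adds bases at joints of heavy chain genes, was 10.8-fold lower, and 64.8% of the UMIs it had in Pax5-only members came from 1 barcode. Egfl7 was 30.6-fold lower and Arpp21 27.3-fold lower. Rag1, by contrast, was at 104 CPM in the members and 106 CPM in the precursors, a ratio of 0.98 (0.85 to 1.14). Il7r, the interleukin 7 receptor, was at 364 against 236 CPM and Sox4 at 343 against 366 CPM. Recombinase and interleukin 7 receptor RNA was thus present in both.

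Cell cycle genes were lower in 14 of 28 and higher in none (11 of 28 without the barcodes high in other RNA, 18 of 28 with TMM scaling). Genes of DNA replication led: Mcm5 was 4.87-fold lower, Tyms 4.73-fold and Cdc6 4.06-fold. Top2a (438 against 679 CPM) and Mki67 (343 against 370 CPM) differed less and did not pass the rule. Of 14 recombination and DNA repair genes only 2 were higher, and 3 were lower (Dntt, Hmgb1 and Hmgb2). Without the barcodes high in other RNA, 4 were higher and 2 lower. Polm, a DNA polymerase of end joining used at light chain joints, was 13.5-fold higher (8.63 to 22.4).

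Of the genes with the highest ratios outside the immunoglobulin genes, several were carried by few barcodes. Thbs4, Tnmd, Tm4sf1 and Il6 had 58.5%, 57.0%, 57.9% and 67.8% of their member UMIs in 1 barcode, and none kept enough UMIs once collagen-high and globin-high barcodes were left out. Agbl1, of the cytosolic carboxypeptidase family, was spread more evenly. It was at 566 CPM against 3.40 CPM, 166-fold higher (92.8 to 334), with 5.06% of its UMIs in the leading barcode. On the lower side, 9130230L23Rik, Shcbp1l and Nmnat2 owed 94.1% to 99.6% of their precursor UMIs to 1 barcode. Immediate early genes were higher in 9 of 17, but in 1 of 17 without the barcodes high in other RNA. Interferon response genes went from 6 of 13 to 2 of 9, and fibroblast and chondrocyte markers, the other cells' own genes, from 9 of 9 to 3 of 5. Erythroid markers were higher in 7 of 8, and in 4 of 5 with 1 lower without those barcodes. The collagen and globin genes that chose those barcodes are on the fibroblast and erythroid lists, so the falls in both lists were set in part by the removal. The part of other cells' RNA in these values was not tested beyond this removal.

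**Figure D2:**
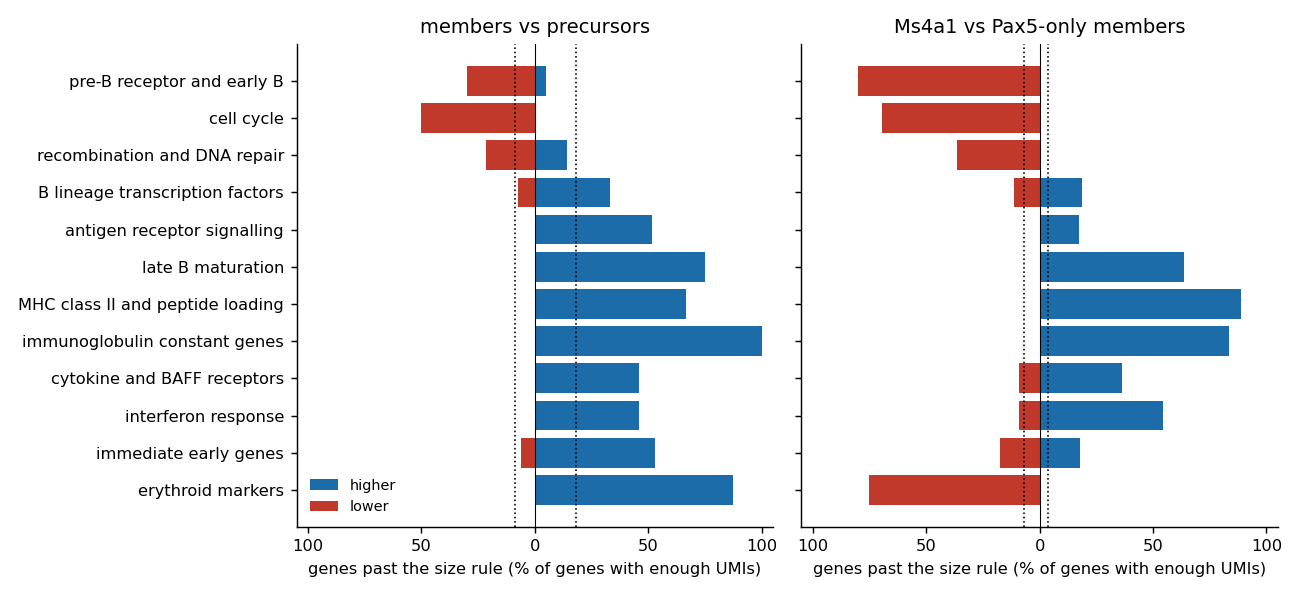
Share of the genes with enough UMIs in 12 lists that were higher (blue, to the right) or lower (red, to the left), for members against precursors and for Ms4a1 members against Pax5-only members. Dotted lines mark the same shares over all genes, 18.4% and 8.53% in the left panel and 3.72% and 6.76% in the right panel.

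The second comparison was within the members, between the 257 with Ms4a1 and the 376 that entered by Pax5 alone. Of 6342 genes with enough UMIs, 236 (3.72%) were higher in the Ms4a1 members and 429 (6.76%) lower, with a median log2 ratio of -0.01. Without the barcodes high in collagen or globin UMIs, 4.93% of 4626 genes were higher and 8.67% lower. With immunoglobulin, mitochondrial and ribosomal genes left out of the scaling, higher genes were 45.9% of the calls in place of 35.5%. Ribosomal protein genes took 23.7% and 15.2% of UMIs in the Ms4a1 members of sets 1 and 2, and 12.1% and 13.7% in the Pax5-only members.

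Early B cell genes were on the Pax5-only side. Of 15 with enough UMIs 12 were lower in the Ms4a1 members and none was higher (14 of 15 without the barcodes high in other RNA). Il7r stood at 549.9 CPM in Pax5-only members and 58.4 CPM in Ms4a1 members, 9.41-fold lower. Rag1 (chr2:101638282-101649501) stood at 150 and 29.2 CPM, 5.14-fold lower. Smarca4, a chromatin remodeller, was 3.95-fold lower, Cecr2 3.15-fold, Sox4 2.44-fold, Lef1 2.60-fold and the early B factor Ebf1 2.04-fold. Ebf1 did not pass, at a ratio of 0.53, with immunoglobulin, mitochondrial and ribosomal genes left out of the scaling. Bach2 was 2.30-fold lower in Ms4a1 members although it was 4.07-fold higher in the members as a whole than in precursors. Bcl2l1, a survival gene, was 3.94-fold lower in Ms4a1 members, while Bcl2 was 4.00-fold higher (2.62 to 6.24), with fewer than 100 UMIs left once collagen-high and globin-high barcodes were removed.

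Cell division genes split the same way. Of 23 cell cycle genes 16 were lower in Ms4a1 members and none higher (18 of 19 without the barcodes high in other RNA). Top2a was at 649 CPM in Pax5-only members and 90.8 CPM in Ms4a1 members, 7.15-fold lower. It was 4.12-fold lower in set 1 and 9.80-fold lower in set 2. Cdk1 was 5.80-fold lower (4.51 and 6.54), Cenpf 5.51-fold (3.31 and 7.12), Mki67 4.69-fold (2.19 and 7.45) and Hmgb2 3.27-fold (1.27 and 6.29). The gap was thus smaller in set 1 for each of these genes. The Pax5-only Top2a level was close to the 679 CPM of the precursors.

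MHC class II and late genes were on the Ms4a1 side. Of 9 MHC class II and peptide loading genes 8 were higher and none lower (7 of 8 higher without the barcodes high in other RNA). Of 22 late maturation genes 14 were higher and none lower. Without the barcodes high in other RNA, 15 of 21 were higher and 2 lower. Cd74 was at 2308 against 215 CPM, 10.7-fold higher (9.81 to 11.8). It was 34.0-fold higher in set 1 and 7.04-fold in set 2. H2-Eb1 was 5.80-fold higher (52.2 in set 1 and 2.92 in set 2), H2-Aa 4.67-fold (18.1 and 2.27) and Ifi30, a thiol reductase of antigen processing, 5.27-fold. The direction was the same in both sets but the size was not: class II levels were higher in set 1 among Ms4a1 members and higher in set 2 among Pax5-only members.

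Among late genes, Bank1 was 14.8-fold higher in Ms4a1 members (13.5 in set 1 and 14.9 in set 2), Fcmr 13.3-fold (74.7 and 7.09), Btla 12.6-fold (23.3 and 10.5) and Cd83 12.2-fold (14.6 and 10.5), the last with 32.5% of its UMIs in 1 barcode. Ly6d, a surface protein of B lineage cells, was 5.29-fold higher (11.9 and 3.60), and Tnfrsf13c, the receptor for the survival factor BAFF, 3.86-fold. Of 29 antigen receptor signalling genes 5 were higher and none lower. Without the barcodes high in other RNA, 6 of 28 were higher and 1 lower. TMM scaling gave 5 higher and 1 lower, and leaving immunoglobulin, mitochondrial and ribosomal genes out of the scaling gave 8 and 0. Ptpn6 was 7.56-fold (19.9 and 5.65) and Cd22 5.82-fold (4.91 and 5.98) higher. Lyn was at 808 and 539 CPM and Syk at 480 and 957 CPM, neither past the rule. Syk passed as lower, at a ratio of 0.44, without the barcodes high in other RNA. Pou2f2 (Oct2) was 3.57-fold and Bcl11a 2.83-fold higher. Igkc was 3.42-fold (7.95 and 2.26), Ighd 2.90-fold (4.16 and 2.43) and Iglc1 8.19-fold (14.9 and 6.52) higher, while Ighm was at 2362 against 1624 CPM. Cd79a itself was 2.03-fold higher, and 1.71-fold without the barcodes high in other RNA.

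Some of the largest ratios between the routes came from other cells' genes in few barcodes. Tagln and Acta2 had 92.5% and 78.1% of their Ms4a1-side UMIs in 1 barcode, and Ccl5 had 89.2% of its Pax5-only UMIs in 1. Il11, Ccl11, Kera and Il1rl1 had 56.7%, 60.5%, 57.0% and 68.5% in 1 barcode. Pkib, an inhibitor of protein kinase A, was 13.9-fold higher in Ms4a1 members with 6.86% of its UMIs in the leading barcode. Erythroid markers were lower in 6 of 8 in Ms4a1 members and in none of 4 without the collagen-high or globin-high barcodes. The globin genes that chose barcodes for removal are on this list, and 18 Ms4a1 and 53 Pax5-only members reached the globin limit. The loss of the erythroid gap was thus set in part by the removal. Hspa1a changed direction without those barcodes, from a ratio of 0.46 to 1.79. Interferon response genes were higher in 6 of 11 and lower in 1; without those barcodes 3 of 6 were higher.

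Promoters of 3 class II genes are shown for the motif they share. H2-Aa and H2-Eb1 were past the rule between the routes, and H2-Ob, which helps to regulate peptide loading in B cells, was not (73.0 against 38.3 CPM, a ratio of 1.91). The core of the Y box, bound by NF-Y in class II promoters, was searched as GATTGG on both strands in the 250 bases before each RefSeq start (GRCm38.p6). Of 9 class II genes looked for, 8 were in the table, and each of the 8 held it at 1 start or more; another start of H2-DMa did not. The share among all 32851 promoters was 14.6%. The 120 bases before the start are printed 5′ to 3′ on the gene's strand, with GATTGG or its complement in capitals.
H2-Aa, chr17:34287824-34287943, minus strand: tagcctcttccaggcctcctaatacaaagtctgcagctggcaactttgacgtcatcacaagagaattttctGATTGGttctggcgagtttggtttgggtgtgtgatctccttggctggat
H2-Eb1, chr17:34305747-34305866, plus strand: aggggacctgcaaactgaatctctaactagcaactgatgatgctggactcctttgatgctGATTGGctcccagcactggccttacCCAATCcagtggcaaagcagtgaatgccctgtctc
H2-Ob, chr17:34238785-34238904, plus strand: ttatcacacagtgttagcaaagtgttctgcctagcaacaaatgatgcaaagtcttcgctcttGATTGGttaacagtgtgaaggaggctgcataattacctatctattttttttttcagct
The motif began 49 bases before the start in H2-Aa and 58 in H2-Ob, and H2-Eb1 held a match on each strand. A match describes the letters only and is neither a site nor a cause.

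The members were also grouped by the number of Ms4a1 UMIs in the barcode. Members with 0, 1, 2 to 3 and 4 or more Ms4a1 UMIs numbered 376, 62, 74 and 121, with median depths of 4206, 2879, 2704 and 5280 UMIs. Rag1 stood at 150, 102, 28.9 and 5.27 CPM in that order. Sox4 stood at 442, 397, 276 and 78.0 CPM and Bach2 at 4043, 2751, 2245 and 1263 CPM. Bank1 ran the other way, at 27.5, 168, 260 and 532 CPM, and Tnfrsf13c at 59.6, 140, 209 and 267 CPM. Cd74 was at 215 CPM at 0 UMIs, 1258 at 1, 2720 at 2 to 3 and 2521 at 4 or more, and so levelled off. Il7r was at 549.9, 89.0, 128 and 25.3 CPM and Top2a at 649, 63.5, 202 and 63.2 CPM, so neither ran in steady order. Within the sets the middle steps rested on 17 and 22 barcodes in set 1 and 45 and 52 in set 2, and not every order held. In set 1 Sox4 ran 381, 163, 272 and 62.2 CPM and Bank1 ran 21.9, 190, 152 and 379.8 CPM. In set 2 Bach2 ran 4135, 2704, 2832 and 1492 CPM. Tnfrsf13c was in the same order in both sets.

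**Figure D3:**
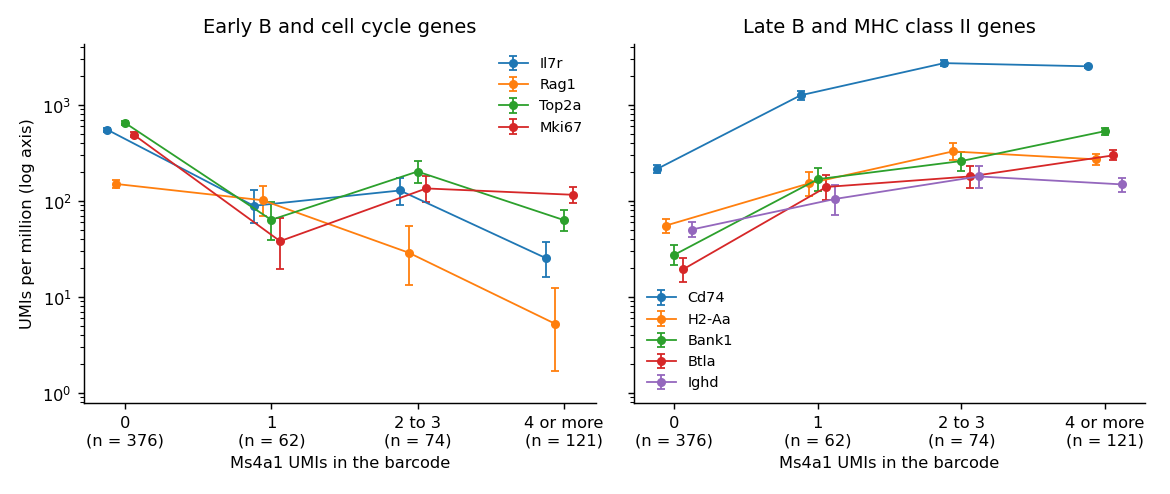
Summed CPM (log axis) in members grouped by their Ms4a1 UMIs, with n barcodes under each group and bars for the exact 95% Poisson interval, which covers counting error only. Rag1 ran from 150 to 5.27 CPM and Bank1 from 27.5 to 532 CPM, while Cd74 levelled off from 2 UMIs on.

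Shares of cells gave the same order at equal depth. Barcodes were thinned to 2000 UMIs, which left 199 Ms4a1 members (58 were too shallow), 329 Pax5-only members (47), 216 precursors (12) and 1716 neutrophils as the background of free RNA. Unthinned median depth was 3975 UMIs in the members, 9949.5 in the precursors and 7506.5 in the neutrophils. Cd74 was seen in 78.4% of Ms4a1 members, 23.4% of Pax5-only members and 4.63% of precursors, against 1.40% of neutrophils (unthinned 82.1%, 37.2%, 11.0% and 3.29%). Il7r was seen in 9.55%, 61.1% and 39.8%, against 0.0583% of neutrophils (unthinned 16.7%, 75.3%, 75.4% and 0.279%). Igkc was seen in 83.4%, 69.9% and 17.1%, against 0.466% (unthinned 89.5%, 83.8%, 30.7% and 0.669%). Top2a was seen in 7.04%, 28.3% and 42.1% (unthinned 8.95%, 30.3% and 58.3%). It was also seen in 12.0% of neutrophils and 2.40% of connective tissue cells (unthinned 19.8% and 7.67%), so no single background level could be read for it. Hbb-bs was seen in 76.4% of Ms4a1 members, 82.4% of Pax5-only members, 47.2% of precursors, 71.2% of neutrophils and 46.6% of connective tissue cells (unthinned 78.6%, 87.2%, 77.2%, 85.6% and 84.3%). Beta globin RNA was thus seen in every class. It was seen more often in the members than in the precursors, unthinned (83.7% against 77.2%) and at 2000 UMIs (80.1% against 47.2%). Thinning took more UMIs from the deeper precursors, and its part in the wider gap at 2000 UMIs was not tested.

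Early and late genes were not wholly exclusive within a barcode. Of the 257 members with Ms4a1, 43 also had Il7r (16.7%), 22 had Rag1 (8.56%) and 23 had Top2a (8.95%). Among the members without Ms4a1 the shares were 75.3%, 41.8% and 30.3%. Of 202 members with Ighd, 94 had Il7r (46.5%), against 53.8% of the others.

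Light chain use was read in the 424 members with at least 5 UMIs of Igkc, Iglc1, Iglc2 and Iglc3 together. Kappa made at least 80% of these UMIs in 249 barcodes (58.7%, 53.9 to 63.5) and at most 20% in 44 (10.4%, 7.64 to 13.7). In 131 barcodes (30.9%, 26.5 to 35.5) kappa and lambda constant RNA were mixed between these limits. Mixed barcodes were 40.8% (34.3 to 47.6) of 223 Ms4a1 members and 19.9% (14.6 to 26.1) of 201 Pax5-only members. Without the barcodes high in collagen or globin they were 42.6% and 17.4%. Median light chain UMIs were 17 in mixed and 19 in other Ms4a1 members, and 12 and 9 in Pax5-only members. The routes thus differed in light chain UMIs, and the part of this in the mixed shares was not tested. The median depth was 3901 UMIs in mixed members and 4400 in the others, and in set 1 alone 6096 and 4585.5. No working doublet call was at hand, and the part of doublets in the mixed class was not tested. All 32 precursors with enough light chain UMIs were kappa (interval 89.1 to 100%).

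**Figure D4:**
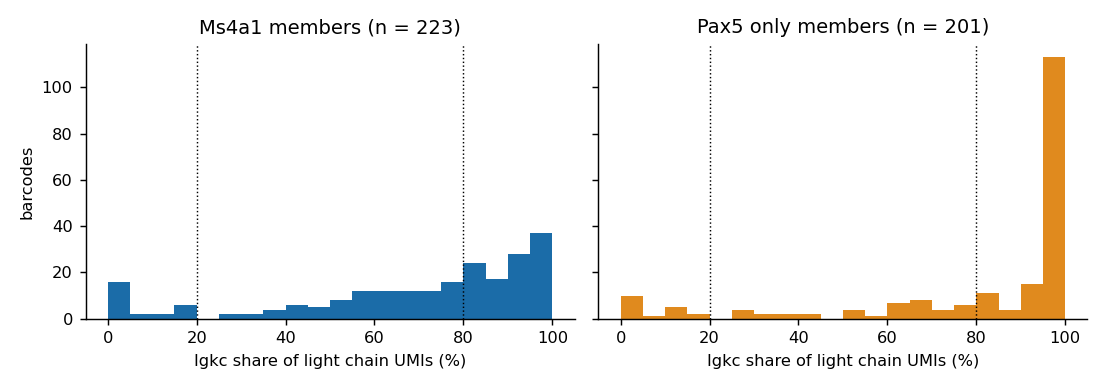
Barcodes by the Igkc share of their light chain constant UMIs (%), for 223 Ms4a1 members and 201 Pax5-only members with at least 5 such UMIs. Dotted lines at 20% and 80% bound the mixed class, which holds 40.8% and 19.9% of the barcodes.

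Lambda RNA was 27.9% of the members' light chain constant UMIs, 31.2% in Ms4a1 and 19.8% in Pax5-only members. Among 155 members with at least 5 lambda UMIs, Iglc1 made 80% or more in 34 and Iglc2 with Iglc3 in 26, and 95 had neither. The Iglc genes are near copies of each other, so how reads were shared among them is uncertain. Ms4a1 members were 42.6% of kappa, 59.1% of lambda and 69.5% of mixed barcodes. The part of this mix of routes in the class levels that follow was not tested. By class, mixed barcodes had the most Cd74, 2200 CPM, against 1151 CPM in kappa and 454 CPM in lambda barcodes. Rag1 was at 147 CPM (109 to 192) in lambda, 85.3 CPM (71.9 to 100.4) in kappa and 57.2 CPM (42.3 to 75.6) in mixed barcodes. It was at 149.6 CPM in the 209 members with fewer than 5 light chain UMIs. Rag2 was lowest in lambda barcodes, with 1 UMI (2.82 CPM, 0.0713 to 15.7). It was at 25.04 CPM (18.05 to 33.85) in kappa and 19.8 CPM (11.6 to 31.7) in mixed barcodes. Il7r was also lowest in lambda, at 98.6 CPM, against 389 CPM in kappa and 141 CPM in mixed barcodes. Top2a was at 683 CPM in kappa and 92.1 CPM in mixed barcodes, and had 0 UMIs in the 44 lambda barcodes, which allows up to 10.4 CPM.

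Variable genes were thinly covered. Igkv genes gave 517 UMIs in the members, spread over 75 of 160 genes. Igkv1-110 led with 76 UMIs in 52 barcodes, then Igkv1-135 with 57 and Igkv1-117 with 50. Ighv genes gave 199 UMIs over 73 of 185 genes, and the leading one, Ighv5-4, had 12 UMIs (6.03% of them). The precursors' 285 Ighv UMIs were held to 54.7% by Ighv1-77, with 156 UMIs in 44 barcodes. Iglv3 gave 50 UMIs, Iglv1 44 and Iglv2 2.

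Igll1 and Vpreb1 together were at 0 in 613 members and at 1 UMI in 20, and 20 precursors had 2 or 3. The 20 members at 1 UMI had 1531 CPM of Vpreb3, a pre-B chain chaperone, 1025 of Igkc and 125 of Cd74. The 20 precursors had 1299, 528 and 44.8 CPM of the same genes, and the members at 0 had 690, 1874 and 1039. On the other side, 234 Cd79a cells had neither Ms4a1 nor Pax5. Of these, 78 had at least 1% collagen UMIs, and Igkc was 211 CPM and Cd74 58.6 CPM in them.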

How the data were processed

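Cells of knee joints from wild-type and Col12a1 knockout pups were measured by droplet sequencing. The deposited matrix holds UMI counts per gene and barcode made by the authors with Cell Ranger 7.0.0, per the file headers, on mm10, per the submitters' processing notes. Counting of intronic reads: not given in the sources used here. Per the labels, more libraries were merged than the 2 barcode sets tell apart, and barcodes are not mapped to genotypes, so the matrix was treated as 1 sample. UMIs were summed over classes and divided by their total (CPM). Levels have exact Poisson, shares Clopper-Pearson and ratios conditional binomial intervals, computed in scipy 1.17.1, and a side at 0 was set to 3 counts. Genes were called with at least 100 UMIs, a ratio of 2, an interval excluding 1 and one direction across the sets. The rule was run on simulated counts drawn from 1 summed profile. That simulation had no differences between barcodes and no RNA of other cells. It therefore could not show how the rule treats genes led by 1 barcode. Named genes come from the 5 markers, Igll1 and Vpreb1, of each list the 2 most abundant and up to 4 highest and 3 lowest past the rule, the 10 highest and 10 lowest ratios against precursors and the 6 and 6 between routes (variable, mitochondrial and ribosomal genes left out), all constant genes, and the 5 most abundant variable genes of each family. Cr2, Fcer2a, Cd79b, Vpreb3, H2-Ab1, H2-Ob, H2-DMa, Ighv1-77 and the markers at 0 were added after their values were seen. Scrublet was run in scanpy 1.11.5 and TMM factors came from edgeR 4.0.16. Members and lists were chosen with earlier results of these data known. Gene positions are GENCODE M21 and promoters RefSeq, GRCm38.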

Additional observations from a re-analysis of the deposited data

How the results depend on the processing

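The 633 members rest on UMI minimums, on which their share of kept cells depends. It was 3.71% with at least 200 genes and 500 UMIs, 3.48% with at most 5% mitochondrial UMIs, 5.68% without set 1 and 2.49% without set 2. It was 2.84% without members holding any S100a8 UMI or 1% globin. Without members at 1% collagen or globin (chosen after seeing the data) it was 3.53%. Both removals left all 15174 kept cells in the divisor, so the share could only fall. The share with such barcodes also removed from the kept cells was not computed. The kappa share was 53.0% without set 2 and within its interval otherwise. Genes higher and lower in members than in precursors numbered 2660 and 1518 at a ratio of 1.5, 724 and 169 at 3, 2915 and 1192 with no UMI minimum, and 302 and 135 with each barcode thinned to 1000 UMIs (chosen after seeing the data). Without set 2, 923 were higher. The lower genes numbered 1095 with TMM factors and 1155 with CPM leaving out immunoglobulin, mitochondrial and ribosomal genes. Genes higher and lower in Ms4a1 than in Pax5-only members numbered 585 and 793 at 1.5, 98 and 199 at 3, 721 and 1020 with no UMI minimum, and 40 and 86 when thinned, where fewer genes had enough UMIs. Requiring 0 UMIs of Igll1 and Vpreb1, at least 1000 genes and 2000 UMIs, or 5 or more such UMIs in precursors kept every count within 1.5 times. Removing the Scrublet calls could not change these counts, because no member or precursor was called. Leaving out set 1 put higher genes at 47.7% of the calls between routes. Of 211 named ratios, 8 reversed. Without S100a8-bearing or globin-high members, Hbb-bs was 0.33, Hba-a1 0.35, Hba-a2 0.36, Hbb-bt 0.34, Il1rl1 0.33 (all against precursors) and Hspa1a 1.15 (between routes); without barcodes at 1% collagen or globin, Ier3 was 1.00 and Hspa1a 1.79; thinned, Col2a1 was 0.60 and Hspa1a 1.15. The removal took globin genes by construction only from members; the cause of the others was not tested. No paired analysis was possible because the files hold 1 pooled matrix without replicates. Depth limits what single genes show: a member held a median of 3975 UMIs, so a gene at 100 CPM gives a UMI in a minority of barcodes.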
